A study of Mus musculus with 6 samples.

Results

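Genes for triacylglycerol synthesis, lipolysis and lipid droplets were followed in RNA from mouse embryoid bodies (EBs), the aggregates in which embryonic stem cells (ESCs) begin to differentiate. The set was a list of 42 gene symbols covering enzymes that build and break down glycerolipids, proteins of the lipid droplet, and enzymes of phosphatidylcholine and phosphatidylethanolamine synthesis. Each of the 42 symbols matched 1 row of a table of 52636 genes. The study compared 3 samples of WT EBs, made from the parental ESC line E14, with 3 samples of Tnfaip2-/- EBs, made from a single CRISPR-Cas9 clone of that line with a premature stop codon in Tnfaip2. Both genotypes were kept in hanging drops for 3 days and then plated on gelatin for 3 days of differentiation in medium without leukemia inhibitory factor (LIF), after growth as ESCs with LIF. Total counts were 22987433, 22489903 and 23804489 in WT EBs and 22480962, 21765931 and 21986960 in Tnfaip2-/- EBs. Tnfaip2 itself had 7, 4 and 7 counts in WT EBs and 0, 2 and 2 counts in Tnfaip2-/- EBs, too few to pass the expression filter, and counts per gene do not read the edited codon. With 1 line per genotype, an effect of the genotype and a property of the clone cannot be told apart. The labels do not say whether replicates were grown as separate cultures, although the methods call them biological replicates, and p-values measure only the spread between these samples.

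Triacylglycerol is made in the endoplasmic reticulum by stepwise acylation of glycerol-3-phosphate to lysophosphatidate and phosphatidate, removal of the phosphate to give diacylglycerol, and a final acylation. The neutral lipid collects in droplets that are covered by a phospholipid monolayer and by perilipins, and is returned as fatty acids by lipases acting in sequence. Diacylglycerol is also the substrate of phosphatidylcholine synthesis, and in pluripotent cells the pathway competes with membrane growth and fatty acid oxidation for the same acyl chains.

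The comparison of Tnfaip2-/- EBs with WT EBs asks which of these genes differ in RNA level between the genotypes after differentiation. RNA of Gpat2, Gpat3 and Mgll was higher, and that of Agpat3, Mogat2 and Soat1 lower, in every Tnfaip2-/- sample than in any WT sample. Pnpla2 and Dgat1, enzymes at the entry to lipolysis and the end of synthesis, did not pass the test. Dgat2, also at the end of synthesis, was lower, and Abhd5 and Hilpda, an activator and an inhibitor of Pnpla2, were higher. Of the 42 members, 37 passed the expression filter and were tested, and 5 (Mogat1, Plin1, Plin4, Cidea and Cidec) did not. In edgeR's quasi-likelihood test, 26 of the 37 had a Benjamini-Hochberg adjusted p below 0.05, or 70.3%, against 67.7% of all 17849 genes tested. Of these, 11 were higher in Tnfaip2-/- EBs (29.7%, against 34.0% of all genes tested) and 15 were lower (40.5%, against 33.7%). Because most genes passed this test, a second rule asked for a change beyond 1.5-fold (edgeR's glmTreat test with the same adjustment), which 6 of the 37 members met (16.2%, against 15.7% of all genes tested). Gpat2, Gpat3 and Mgll were higher by this rule (8.11%, against 9.05%), and Agpat3, Mogat2 and Soat1 were lower (8.11%, against 6.63%). The WT and Tnfaip2-/- samples did not overlap for 27 of the 37 members, or 73.0%, against 69.4% of all genes tested. The median log2 fold change was -0.06 over the tested members and 0.00 over all genes tested, and the median absolute log2 fold change was 0.35 and 0.30. Mgll and Cideb passed the filter only through the Tnfaip2-/- samples, and without them 25 of 35 members were called and 5 were beyond 1.5-fold. As a list, the members stood close to the background, which gives no result about the list. In bulk RNA, fewer cells of a type and less RNA per cell cannot be told apart.

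**Figure D1:**
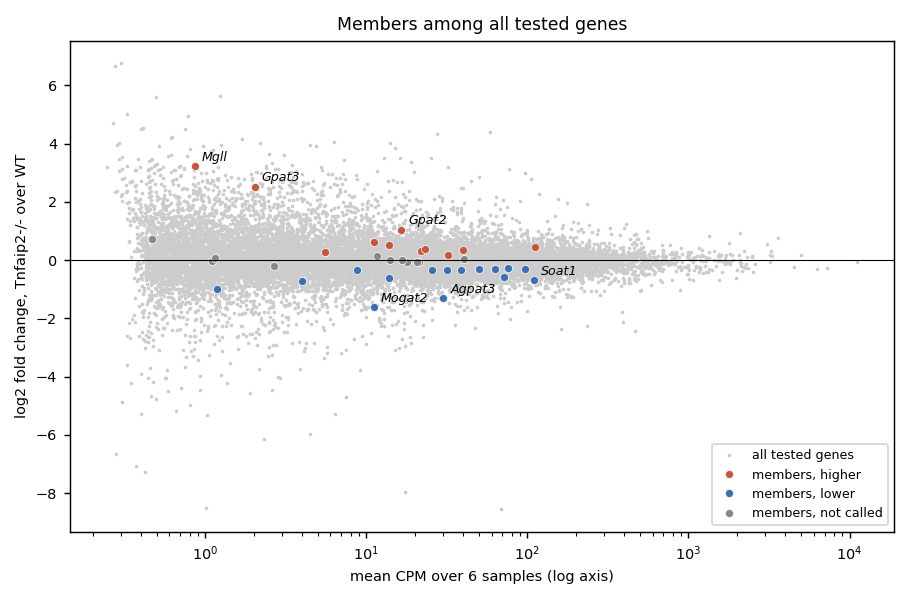
Each point is 1 gene, with its mean level over the 6 samples in CPM (counts scaled to library size, log axis) and its log2 fold change in Tnfaip2-/- over WT EBs. Grey dots are the 17849 genes tested and coloured dots the 37 tested members, of which the 6 beyond 1.5-fold are named and lie inside the cloud of all genes.

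Regions before the start of Gpat2, Mgll and Soat1 are shown because they are the members beyond 1.5-fold whose region before the start lost at most 3 bases to exons of coding genes. Promoters were taken from RefSeq (GRCm38.p6), which held 34 of the 42 members, Mogat2 not among them, and the 250 bases before the most upstream start were searched on both strands for the letters CACGTG (known as the E-box), for the letters CCAAT (the CCAAT box), for the letters GGGCGG (the GC box) and for the letters TATAAA (the TATA box). Capitals mark matches. The regions are chr2:127424949-127425198 (forward strand) for Gpat2, chr6:88724162-88724411 (forward strand) for Mgll and chr1:156474332-156474578 (reverse strand) for Soat1, the last without 3 bases of an annotated exon.
Gpat2: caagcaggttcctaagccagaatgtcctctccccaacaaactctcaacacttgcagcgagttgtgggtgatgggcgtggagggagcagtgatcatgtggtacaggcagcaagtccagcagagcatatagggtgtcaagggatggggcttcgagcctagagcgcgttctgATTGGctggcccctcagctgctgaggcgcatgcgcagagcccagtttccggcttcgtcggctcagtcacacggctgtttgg
Mgll: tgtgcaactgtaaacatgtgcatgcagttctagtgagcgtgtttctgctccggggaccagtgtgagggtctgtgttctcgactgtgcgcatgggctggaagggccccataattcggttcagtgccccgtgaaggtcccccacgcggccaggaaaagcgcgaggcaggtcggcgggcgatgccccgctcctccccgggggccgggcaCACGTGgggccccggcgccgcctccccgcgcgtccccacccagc
Soat1: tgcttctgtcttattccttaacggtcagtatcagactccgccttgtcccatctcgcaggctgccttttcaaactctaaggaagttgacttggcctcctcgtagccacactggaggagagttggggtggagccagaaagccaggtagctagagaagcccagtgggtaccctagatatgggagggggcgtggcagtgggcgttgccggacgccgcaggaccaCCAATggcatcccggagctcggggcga

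The Mgll region, which lies in an exon of the noncoding gene Gm26588 on the opposite strand (0 counts in every sample), held an E-box starting 44 bases before the start, a motif present in 6.04% of the same windows of all 27018 genes with a promoter in the table. A CCAAT box lay 30 bases before the start of Soat1 and, on the reverse strand, 81 bases before that of Gpat2, and 34.5% of all windows held this motif. The window of Gpat3 held 3 GC boxes and that of Agpat3 none of the 4 motifs, and neither is printed because part of each lies in annotated exons of the same gene. Across the list, 18 of 34 member windows (52.9%) held a GC box, against 33% of all windows, and a TATA box was found in 3 of 34 (8.82%, against 13%). The median GC content was 59.8% for member windows and 52% for all windows. The ratio of observed to expected CpG was 0.521 and 0.379. The set of all windows includes genes that did not pass the expression filter, so these differences are not matched for expression. Among members that did not pass the expression filter, the 4 with a promoter in the table (Mogat1, Plin1, Plin4 and Cidec) had a median CpG ratio of 0.208 and no GC box.

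Glycerol-3-phosphate acyltransferases, which start the pathway, split by enzyme. Gpat2, a mitochondrial isoform known for its high level in testis, had 12.2, 10.1 and 9.83 CPM in WT EBs and 20.3, 21.7 and 24.5 CPM in Tnfaip2-/- EBs. All Tnfaip2-/- samples lay above all WT samples, with a log2 fold change of 1.05 (SE 0.0759, adjusted p = 1.06e-16 in edgeR's quasi-likelihood test with Benjamini-Hochberg adjustment). Gpat3, an isoform of the endoplasmic reticulum that rises when fat cells form, had 8, 19 and 14 counts in WT EBs and 86, 78 and 67 counts in Tnfaip2-/- EBs, or 0.599 ± 0.248 and 3.46 ± 0.393 CPM (SD, n = 3). The groups did not overlap, and the log2 fold change was 2.52 (SE 0.217, adjusted p = 3.27e-14 by the same edgeR test). Exons of a gene on the opposite strand, 4930458D05Rik, cover 30% of the exon bases of Gpat3, and that gene had at most 1 count in any sample. Those of Gm42987 on the same strand, with 0 counts in every sample, cover 7.4%. Reads in shared bases cannot be told apart, so these counts do not show that either gene is silent. The remaining pair fell. Gpat4, a microsomal isoform and the most abundant of the step in CPM per kilobase of exon (RPKM), had 107.6, 110.9 and 104.2 CPM in WT EBs and 88.2, 86.1 and 86.7 CPM in Tnfaip2-/- EBs. Its log2 fold change was -0.31 (SE 0.0332, edgeR adjusted p = 3.66e-11), without overlap. Gpam, the outer mitochondrial membrane isoform that responds to insulin and SREBP-1c in liver, fell from 16.8 ± 1.26 to 11.1 ± 0.113 CPM (log2 fold change -0.60, edgeR adjusted p = 7.99e-10). The summed RPKM of the 4 genes was 22.9 ± 0.915 in WT EBs and 24.1 ± 0.648 in Tnfaip2-/- EBs, a ratio of 1.05. Within that sum, Gpat2 went from 17.8% ± 1.72 to 34.95% ± 2.48 and Gpat4 from 70.4% ± 1.54 to 54.05% ± 1.79.

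**Figure D2:**
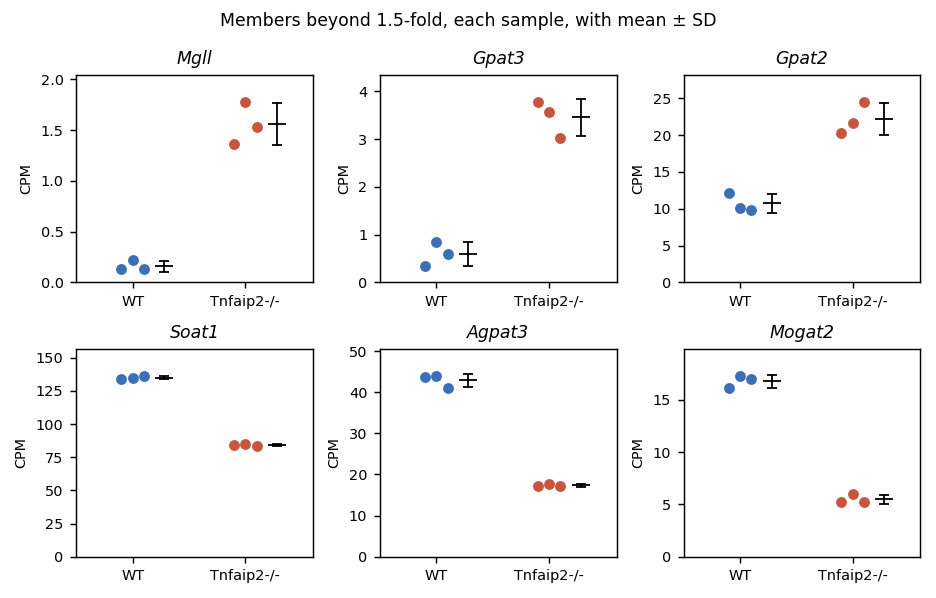
Levels of the 6 members called beyond 1.5-fold in each sample, in CPM from 0 on a linear axis, with the mean and SD of 3 samples in black. WT samples are blue and Tnfaip2-/- samples red, and the groups do not overlap in any panel.

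Acylglycerolphosphate acyltransferases, which turn lysophosphatidate into phosphatidate, included the member called lower with the smallest adjusted p of the list. Agpat3 had 43.7, 43.9 and 41.0 CPM in WT EBs and 17.1, 17.6 and 17.2 CPM in Tnfaip2-/- EBs. The samples of each genotype lay within a narrow range and the groups stood far apart, at a log2 fold change of -1.31 (SE 0.0529, adjusted p = 4.99e-26 in edgeR's quasi-likelihood test). Agpat1, the most abundant isoform by RPKM, had 72.7, 69.0 and 67.6 CPM in WT EBs and 55.9, 58.2 and 56.0 CPM in Tnfaip2-/- EBs. It was lower in all Tnfaip2-/- samples, with a log2 fold change of -0.30 (SE 0.0387, edgeR adjusted p = 3.52e-09). Agpat2, whose loss causes congenital lipodystrophy in humans, and Agpat5, a mitochondrial isoform, rose. Their log2 fold changes were 0.30 and 0.44 (edgeR adjusted p = 4.89e-05 and 7.87e-17). Agpat4 had 21.9 ± 0.957 and 20.8 ± 0.756 CPM, a log2 fold change of -0.07 that did not pass the test (edgeR adjusted p = 0.263). The summed RPKM of the 5 genes was 54.8 ± 2.17 in WT EBs and 51.9 ± 0.385 in Tnfaip2-/- EBs. The share of Agpat3 in this sum went from 10.05% ± 0.4 to 4.28% ± 0.0717, and that of Agpat5 from 16.0% ± 0.504 to 22.85% ± 0.378. In the exons of Agpat5, 18.9% of bases are shared with Gm35934 on the opposite strand, which had at most 1 count in any sample.

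Lipins dephosphorylate phosphatidate to diacylglycerol. Lpin3, the most abundant of the 3 by RPKM, had 8.38, 8.53 and 9.49 CPM in WT EBs and 13.2, 12.6 and 14.5 CPM in Tnfaip2-/- EBs. The groups did not overlap, and the log2 fold change was 0.61 (SE 0.0806, edgeR adjusted p = 5.92e-09, and 0.707 against 1.5-fold). Lpin1, which is also a transcriptional coactivator in liver, and Lpin2 had overlapping groups, with log2 fold changes of -0.01 and -0.08 (edgeR adjusted p = 0.907 and 0.319).

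Acylation turns monoacylglycerol into diacylglycerol, and diacylglycerol into triacylglycerol itself. Mogat2, which acylates monoacylglycerol and is known from the absorptive cells of the intestine, had 16.1, 17.3 and 17.0 CPM in WT EBs and 5.24, 5.98 and 5.23 CPM in Tnfaip2-/- EBs. No Tnfaip2-/- sample reached the lowest WT sample, and the level was 3.06-fold higher in WT EBs, a log2 fold change of -1.61 (SE 0.0839, adjusted p = 7.16e-22 in edgeR's quasi-likelihood test). Dgat1, an acyltransferase of the endoplasmic reticulum, was the most abundant of the step by RPKM over all samples and in Tnfaip2-/- EBs, while Mogat2 was in WT EBs (9.15 RPKM, against 6.94 for Dgat1). It had 22.9, 19.1 and 21.5 CPM in WT EBs and 19.4, 20.8 and 20.9 CPM in Tnfaip2-/- EBs, and the groups overlapped (log2 fold change -0.06, SE 0.0629, edgeR adjusted p = 0.415). Dgat2, which also acts at the droplet surface, fell from 9.89 ± 0.742 to 7.74 ± 0.594 CPM (log2 fold change -0.35, edgeR adjusted p = 0.000538). Mogat1 had 5, 1 and 2 counts in WT EBs and 1, 2 and 0 in Tnfaip2-/- EBs. The summed RPKM of both acylations was 19.4 ± 0.631 in WT EBs and 12.2 ± 0.578 in Tnfaip2-/- EBs, a ratio of 0.63. Mean RPKM in WT and Tnfaip2-/- EBs was 9.15 and 2.99 for Mogat2, 6.94 and 6.67 for Dgat1, and 3.21 and 2.51 for Dgat2. Mogat2 made up 47.3% ± 3.15 of the sum in WT EBs and 24.5% ± 0.833 in Tnfaip2-/- EBs, while Dgat1 went from 35.8% ± 2.15 to 54.7% ± 1.98.

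**Figure D3:**
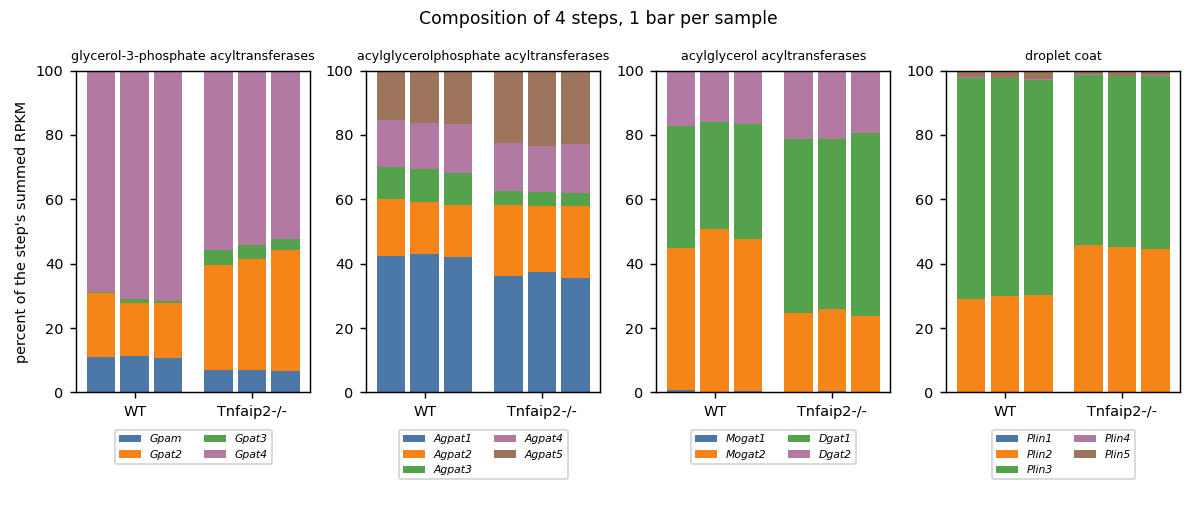
Share of each gene in the summed RPKM of its step, in percent, with 1 stacked bar per sample (3 WT and 3 Tnfaip2-/-) for 4 steps. Gpat2 is at 17.8% in WT EBs and 34.95% in Tnfaip2-/- EBs, Mogat2 falls from 47.3% to 24.5%, and Plin2 goes from 29.8% to 45.1%.

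Sterol acyltransferases store cholesterol as esters, the other neutral lipid of droplets. Soat1, the isoform of most tissues, had 134, 135 and 136 CPM in WT EBs and 84.5, 84.6 and 83.4 CPM in Tnfaip2-/- EBs. The groups were separated by far more than their spread, with a log2 fold change of -0.68 (SE 0.0313, adjusted p = 7.65e-24 in edgeR's quasi-likelihood test). Its adjusted p in edgeR's test against 1.5-fold was 0.00343, and with DESeq2 the corresponding adjusted p was 0.104, which ends this call, while it was 0.00093 to 0.0275 under the other alternatives. Soat2, the isoform of liver and intestine, fell from 4.93 ± 0.692 to 3.03 ± 0.536 CPM (log2 fold change -0.70, edgeR adjusted p = 1.83e-05). The summed RPKM of the pair was 16.0 ± 0.196 in WT EBs and 9.97 ± 0.23 in Tnfaip2-/- EBs, and Soat1 made up 86.1% ± 1.8 and 86.3% ± 2.15 of it.

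Lipolysis proceeds from triacylglycerol to diacylglycerol by Pnpla2 (adipose triglyceride lipase) with its activator Abhd5, to monoacylglycerol by Lipe (hormone-sensitive lipase), and to glycerol by Mgll (monoacylglycerol lipase). Pnpla2, the most abundant of these by RPKM, had 41.8, 42.5 and 35.8 CPM in WT EBs and 39.8, 40.2 and 42.7 CPM in Tnfaip2-/- EBs. The groups overlapped, and the log2 fold change of 0.03 did not pass (SE 0.0505, edgeR adjusted p = 0.575). Abhd5 rose from 11.3 ± 0.312 to 16.3 ± 1.2 CPM (log2 fold change 0.52, edgeR adjusted p = 2.05e-08). Opposite-strand exons of A730085K08Rik cover 16% of its exon bases, and that gene had 0 counts in every sample. Lipe had 125, 112 and 104 counts in WT EBs and 134, 145 and 126 counts in Tnfaip2-/- EBs. In CPM the groups did not overlap, at a log2 fold change of 0.29 (SE 0.111, edgeR adjusted p = 0.0217). Exons of 4732471J01Rik on the opposite strand, a gene with 7 to 14 counts, cover 15.6% of its exon bases. The Lipe call was lost with DESeq2 (adjusted p = 0.166), without WT replicate 3 (edgeR adjusted p = 0.164) and without Tnfaip2-/- replicate 2 (edgeR adjusted p = 0.121).

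Mgll, the enzyme of the last step, had 3, 5 and 3 counts in WT EBs and 31, 39 and 34 counts in Tnfaip2-/- EBs. The WT samples were at or just above the floor of 3 counts, and the gene passed the expression filter only through the Tnfaip2-/- samples. Scaled to the library sizes, the summed counts of 11 and 104 gave a ratio of 9.70, with an exact 95% interval of 5.20 to 20.0 that covers counting error only. The fitted log2 fold change was 3.23 (SE 0.341, adjusted p = 1.64e-11 in edgeR's quasi-likelihood test), a size that depends on the few WT counts. At 0.307 RPKM in Tnfaip2-/- EBs the level of Mgll remained far below the 13.5 RPKM of Pnpla2. Lipa, the acid lipase of lysosomes, had 16.8 ± 0.168 and 16.7 ± 0.554 CPM, and Pnpla3, a lipase relative of the droplet surface, 2.88 ± 0.37 and 2.5 ± 0.309 CPM. Their groups overlapped (edgeR adjusted p = 0.915 and 0.256).

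Pnpla2 is held back by small inhibitor proteins. Hilpda, which is known to be induced by hypoxia, had 442, 442 and 493 counts in WT EBs and 568, 589 and 577 counts in Tnfaip2-/- EBs, and by RPKM it was higher than Pnpla2 in both genotypes (18.2 ± 0.721 and 23.5 ± 0.86 RPKM). All Tnfaip2-/- samples were higher, with a log2 fold change of 0.37 (SE 0.057, adjusted p = 1.94e-07 in edgeR's quasi-likelihood test). G0s2, the other inhibitor, stayed between 23 and 27 counts in all 6 samples (log2 fold change -0.02, edgeR adjusted p = 0.941).

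**Figure D4:**
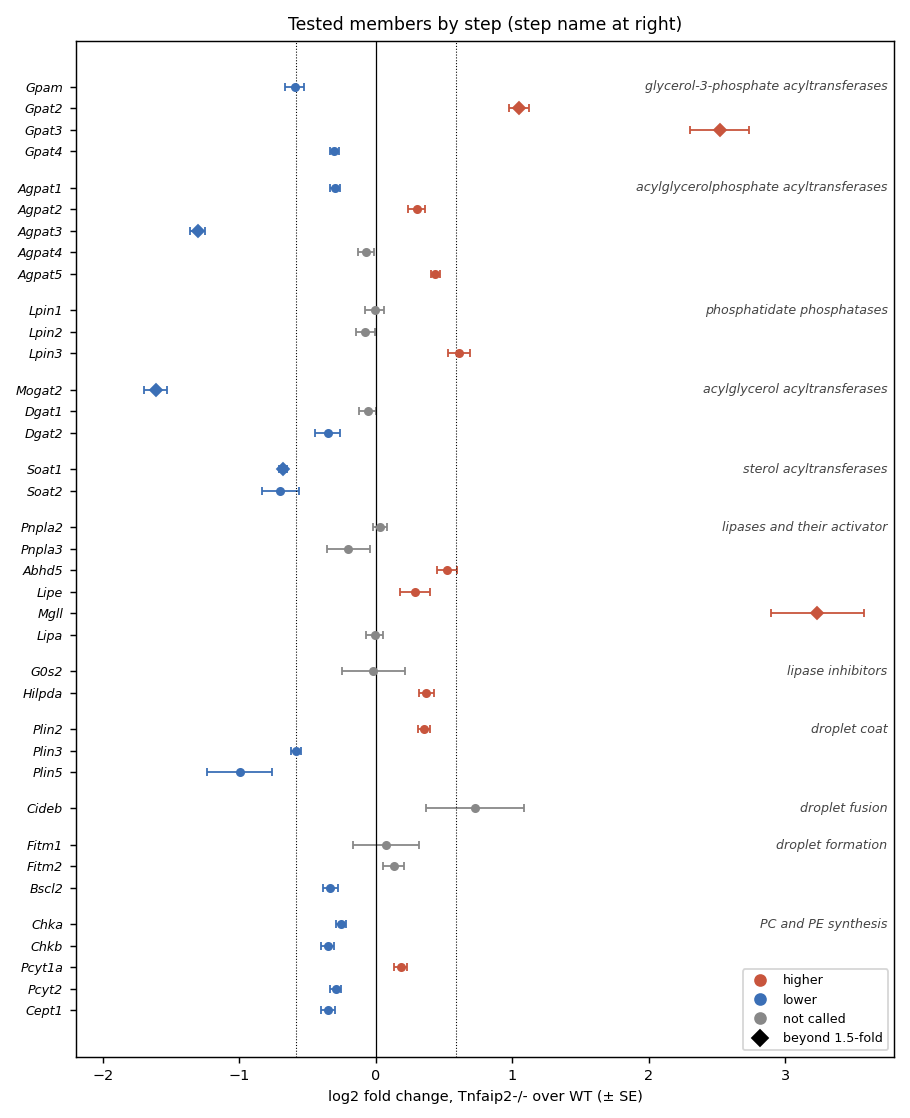
Log2 fold changes of the 37 tested members in Tnfaip2-/- over WT EBs with SE, ordered by step, with the step named at the right. Red marks higher, blue lower and grey not called at an adjusted p of 0.05, diamonds mark the 6 members beyond 1.5-fold, and dotted lines mark a change of 1.5-fold.

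Perilipins coat the droplet and set how far lipases reach it. Plin3, which moves from the cytosol to new droplets, was the most abundant coat gene by RPKM and had 86.5, 85.7 and 84.8 CPM in WT EBs and 56.1, 57.0 and 58.3 CPM in Tnfaip2-/- EBs. It fell in every Tnfaip2-/- sample, with a log2 fold change of -0.58 (SE 0.0361, adjusted p = 4.21e-19 in edgeR's quasi-likelihood test), and did not pass the test against 1.5-fold (adjusted p = 0.991). Plin2, the perilipin that is degraded when it is not bound to droplets, went the other way. It had 33.9, 35.3 and 35.8 CPM in WT EBs and 44.8 CPM in each Tnfaip2-/- sample. The log2 fold change was 0.35 without overlap (SE 0.0446, edgeR adjusted p = 1.81e-09). The share of Plin3 in the summed RPKM of the coat genes was 67.7% ± 0.988 in WT EBs and 53.3% ± 0.397 in Tnfaip2-/- EBs, and that of Plin2 was 29.8% ± 0.681 and 45.1% ± 0.589. Plin5, the perilipin of oxidative tissues, had 31, 35 and 43 counts in WT EBs and 13, 21 and 19 counts in Tnfaip2-/- EBs. It was lower without overlap (log2 fold change -0.998, SE 0.238, edgeR adjusted p = 0.000282). Its adjusted p in edgeR's test against 1.5-fold was 0.0779, and 0.0451 without WT replicate 1 and 0.0465 without Tnfaip2-/- replicate 2. It was 0.0761 to 0.354 under the other edgeR alternatives in which Plin5 had a value, and with DESeq2 Plin5 did not pass. The perilipins of fat cells were near 0: Plin1 had at most 2 counts and Plin4 7 or 8 counts in every sample. The summed level of the coat genes was 33.4 ± 0.167 RPKM in WT EBs and 28.3 ± 0.375 RPKM in Tnfaip2-/- EBs.

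Droplet fusion genes of the Cide family had few counts in both genotypes. Cideb, known from liver, had 7, 9 and 8 counts in WT EBs and 13, 10 and 16 in Tnfaip2-/- EBs. The groups did not overlap, and the log2 fold change of 0.73 did not pass the test (edgeR adjusted p = 0.0698, and 0.0498 without Tnfaip2-/- replicate 2). Like Mgll, it passed the expression filter only through the Tnfaip2-/- samples, and exons of Nop9 on the opposite strand cover 76.3% of its exon bases. Nop9 had 2161, 2278 and 2429 counts in WT EBs and 1710, 1693 and 1717 in Tnfaip2-/- EBs. Because the library kit does not mark the strand, reads of these genes cannot be told apart where they overlap. The level of Cideb and its rank by RPKM are therefore uncertain. Cidea, the most abundant of the 3 by RPKM over all samples but not in Tnfaip2-/- EBs alone, had 4, 7 and 9 counts in WT EBs and 12, 6 and 10 in Tnfaip2-/- EBs, and Cidec, known from fat cells, had 3, 3 and 2 and then 9, 3 and 8. Neither was tested.

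Bscl2 (seipin) and the Fitm proteins act where droplets bud from the endoplasmic reticulum. Bscl2, the most abundant of the 3 by RPKM, had 28.7, 28.8 and 28.8 CPM in WT EBs and 22.4, 22.3 and 23.7 CPM in Tnfaip2-/- EBs. It was lower in every Tnfaip2-/- sample (log2 fold change -0.33, SE 0.0533, edgeR adjusted p = 4.32e-07), and 6.7% of its exon bases lie in exons of Gng3 on the opposite strand, which also fell (log2 fold change -0.65, edgeR adjusted p = 5.23e-13). Fitm2 and the muscle isoform Fitm1 had overlapping groups, with log2 fold changes of 0.13 and 0.07 (edgeR adjusted p = 0.139 and 0.799).

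For phosphatidylcholine and phosphatidylethanolamine, which form the droplet's monolayer, 4 of 5 genes fell and 1 rose, none called beyond 1.5-fold, where 33.7% of all genes tested were lower and 34.0% higher. Chkb, a choline and ethanolamine kinase, had 43.6, 42.9 and 44.1 CPM in WT EBs and 34.6, 35.1 and 32.6 CPM in Tnfaip2-/- EBs, and was the most abundant by RPKM. Its groups did not overlap (log2 fold change -0.35, SE 0.0456, adjusted p = 3.57e-09 in edgeR's quasi-likelihood test). Of its exon bases, 50.7% are shared with the same-strand transcript Gm44502, which is not among the genes counted. Any reads of Gm44502 in the shared bases would count as Chkb, so the level of Chkb is uncertain. Chka, the other choline kinase, Pcyt2, the rate-limiting enzyme of the ethanolamine branch, and Cept1, which joins either head group to diacylglycerol, were lower as well. Their log2 fold changes were -0.26, -0.29 and -0.35 (edgeR adjusted p = 4.32e-08, 1.82e-08 and 9.89e-08). Exons of Dennd2d and Dram2 on the opposite strand cover 24.9% of the exon bases of Cept1. Pcyt1a, the rate-limiting enzyme of the choline branch, rose from 30.0 ± 1.41 to 34.0 ± 1.4 CPM (log2 fold change 0.18, edgeR adjusted p = 0.00164). Opposite-strand exons of 2210020O09Rik, which is not among the genes counted, and of Slc51a cover 9.1% of its exon bases. Slc51a rose from 3, 2 and 7 counts to 13, 18 and 14 counts (log2 fold change 1.91, edgeR adjusted p = 9.59e-05). The summed RPKM of the 5 genes was 49.2 ± 0.459 in WT EBs and 40.8 ± 0.338 in Tnfaip2-/- EBs, a ratio of 0.828.

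**Figure D5:**
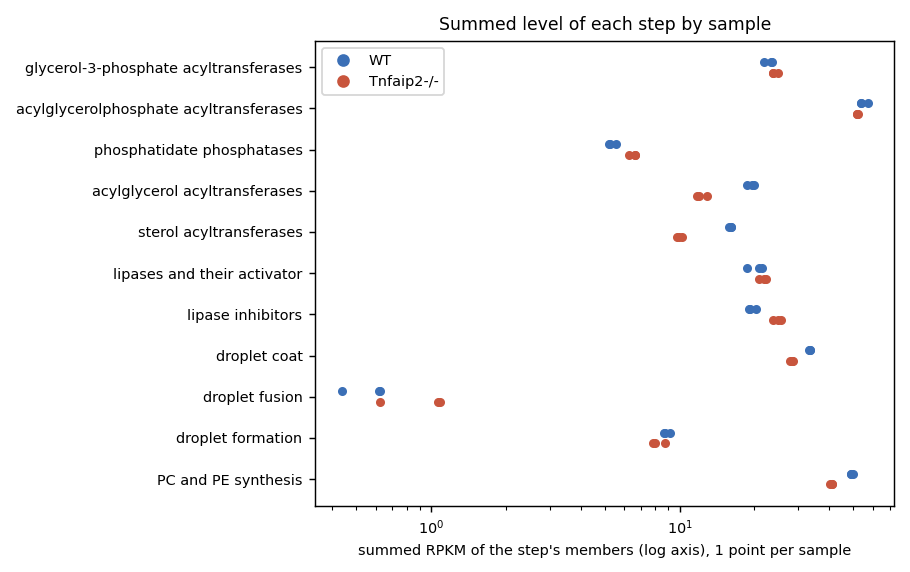
Summed RPKM of the members of each step in each sample (log axis, 1 point per sample, WT blue and Tnfaip2-/- red). The groups overlap for the lipases with their activator and for droplet formation, and the ratio of means is lowest for sterol acyltransferases (0.623) and acylglycerol acyltransferases (0.63). It is highest for droplet fusion (1.66, from few counts), lipase inhibitors (1.27) and phosphatidate phosphatases (1.22).

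Other genes of the pathway, outside the list of members, were counted in 4 groups. Of 64 genes, 54 were tested, 21 were higher and 18 lower in edgeR's quasi-likelihood test (72.2% in all, against 67.7% of all genes tested), and 8 were beyond 1.5-fold (14.8%, against 15.7%). The counts by group stand beside 34.0% of all genes tested that were higher and 33.7% that were lower. Among acyl-CoA synthetases and fatty acid uptake genes, 5 were higher and 6 lower of 12 tested. Fabp5, a fatty acid binding protein, fell beyond 1.5-fold, from 1821, 1800 and 1912 counts to 1102, 1020 and 1062 (log2 fold change -0.76, edgeR adjusted p = 1.16e-22). Of 13 other phosphatases, lipases and diacylglycerol enzymes, 4 were higher and 3 lower. Plpp3, a lipid phosphate phosphatase, fell (log2 fold change -1.34, edgeR adjusted p = 4.12e-18), while the phospholipase Ddhd1 and the diacylglycerol lipase Dagla rose (1.05 and 1.23, edgeR adjusted p = 1.08e-18 and 3.15e-11). Of 13 other droplet proteins, 6 were higher and 5 lower. Hsd17b11 and the intermediate filament gene Vim fell beyond 1.5-fold, each with a log2 fold change of -1.28 (edgeR adjusted p = 6.65e-30 and 2.01e-34). Vim had 4574, 4655 and 4950 counts in WT EBs and 1988, 1777 and 1936 in Tnfaip2-/- EBs. Of 16 genes of other phospholipid synthesis, 6 were higher and 4 lower. Pcyt1b, a relative of Pcyt1a with the same activity, and the ethanolamine kinase Etnk2 rose beyond 1.5-fold (log2 fold changes 0.76 and 1.16, edgeR adjusted p = 1.52e-19 and 1.71e-10).

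Markers of other cell types give the setting of these levels, and their counts stand in a comparison in which 34.0% of all genes tested were higher and 33.7% lower. Of the 8 adipocyte markers, none passed the expression filter and 6 (Lep, Cfd, Retn, Fabp4, Pparg and Plin1) were at or under 3 counts in every sample. The summed level of all 8 was 0.221, 0.313 and 0.128 CPM in WT EBs and 0.792, 0.365 and 0.586 CPM in Tnfaip2-/- EBs. Cidec was the most abundant by RPKM. Of the 6 macrophage markers, Ptprc, Adgre1, Csf1r and Lyz2 were at or under the floor throughout, and Cd68, the most abundant by RPKM, was the only one tested and was higher (log2 fold change 0.46, edgeR adjusted p = 0.000136). Trem2, which was not tested, had 8, 7 and 4 counts in WT EBs and 1, 4 and 5 in Tnfaip2-/- EBs. The summed level of all 6 was 5.56, 7.46 and 6.43 CPM in WT EBs and 7.70, 9.13 and 9.33 CPM in Tnfaip2-/- EBs. Most of it was Cd68, with means of 6.19 and 8.50 CPM. The steroid-producing and liver list had 2 tested genes, neither called, with Star the most abundant by RPKM Alb and Cyp7a1 at or under the floor, and summed levels of 6.09, 6.30 and 6.17 CPM against 6.16, 6.85 and 5.82 CPM. Of 12 tested markers of primitive and visceral endoderm, 8 were lower (against 33.7% of all genes tested) and 2 higher (against 34.0%), and their summed level was 146, 147 and 142 CPM in WT EBs and 123, 119 and 121 CPM in Tnfaip2-/- EBs. Among them, Afp, Ttr, Apoa1, Apob and Foxa2 fell beyond 1.5-fold, while Sox17 and Sox7 rose (log2 fold changes 0.45 and 0.64, edgeR adjusted p = 0.0116 and 0.00126). Afp passed the expression filter only through the WT samples (21, 16 and 25 counts, against 1, 0 and 2 in Tnfaip2-/- EBs). The same holds in the lists that follow for T and Mesp1 (mesoderm), Zic1 (neural) and Col3a1 (fibroblasts). Gata6 and Gata4 had overlapping groups and Apoa4 was at the floor. Dab2 was the most abundant by RPKM. All 6 mesoderm and primitive streak markers were lower, with summed levels of 88.2, 87.2 and 86.9 CPM in WT EBs and 21.4, 18.8 and 22.5 CPM in Tnfaip2-/- EBs, as were all 4 early neural markers, at 107, 107 and 99.7 against 46.6, 44.8 and 45.9 CPM. By RPKM, the most abundant gene of the first list was T in WT EBs and Eomes in Tnfaip2-/- EBs, and that of the second was Sox1 in both. Of 8 pluripotency markers, 3 were higher (Zfp42, Nanog and Sox2, with log2 fold changes of 0.90, 0.26 and 0.23) and 5 lower, among them Pou5f1 (-0.86) and Dppa5a (-0.69), the most abundant by RPKM. Their summed level was 3494, 3444 and 3513 CPM in WT EBs and 2949, 2955 and 2931 CPM in Tnfaip2-/- EBs. Of 5 tested fibroblast markers 3 were lower (against 33.7% of all genes tested), of which Col1a2 and Col3a1 fell beyond 1.5-fold (against 6.63%). Thy1 was the most abundant by RPKM, and the summed level of the list was 14.5, 16.4 and 14.3 CPM against 10.7, 10.5 and 10.8 CPM. The part of these cell types in the levels of the members was not tested.

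The members lie on many chromosomes. On chromosome 17 the median log2 fold change of 791 tested genes was -0.25, and all 5 tested members there (Agpat1, Agpat4, Lpin2, Plin3 and Plin5) had a value below 0, of which Agpat1, Plin3 and Plin5 passed the test. The part of the chromosome in these values was not tested. On chromosome 2, where the median was 0.08, the 4 tested members (Gpat2, Agpat2, Lpin3 and Fitm2) had values above 0. On other chromosomes the signs of members and median matched in some cases, as on chromosome 10 (median -0.18), where Agpat3 was lower, and chromosome 9 (median 0.09), where Abhd5 was higher, and differed in others. On chromosome 15 (median 0.08) the 4 tested members (Dgat1, Soat2, Pnpla3 and Chkb) and on chromosome 19 (median 0.05) the 4 tested members (Gpam, Lipa, Bscl2 and Chka) had values below 0, with that of Lipa so near 0 that it turned sign under some alternatives, upper-quartile factors among them.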

How the data were processed

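RNA was measured in 6 samples, 3 WT and 3 Tnfaip2-/-. The authors trimmed 51-base single-end reads, mapped them to GRCm38 with TopHat2 2.1.0 and the Ensembl annotation, counted uniquely mapped reads per gene with featureCounts 1.5.0 (versions as in the submitters' notes and the methods), and deposited the counts without normalization. The kit does not mark the strand. Where a member overlaps another gene, low counts of that gene therefore do not show that it is silent. From these counts, edgeR 4.0.16 in R 4.3.3 gave TMM factors, CPM and the robust quasi-likelihood F test over all genes kept by filterByExpr (minimum count 10, minimum total 15), with Benjamini-Hochberg adjustment, a threshold of 0.05 and glmTreat against 1.5-fold. RPKM used union exon lengths of GENCODE M21 on GRCm38, from which symbols were also matched. SE is the absolute log2 fold change over the root of F. Errors are SD. A count of 3, the floor, is 0.128 to 0.137 CPM. The edgeR fit was tried on simulated counts with changes of known size, and the outcome is not given here. Every member is named, and full values are given for members beyond 1.5-fold and the most abundant of each step. Members and lists were chosen with earlier results of these data known. DESeq2 1.42.0, RLE and upper-quartile factors, other filters, the legacy fit, a replicate block and leaving out each sample were the alternatives.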

Additional observations from a re-analysis of the deposited data

How the results depend on the processing

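The number of members called was 24 to 26 under every alternative listed in the methods, against 26, and the number beyond 1.5-fold was 5 to 7, against 6. None of the 26 called members turned direction under any alternative in which it had a value. Of all genes, 2798 passed beyond 1.5-fold and 1723 did so with DESeq2, and the cause was not tested. Under other scalings the median of all genes moved by at most 0.03 (log2). Of 476 alternative values of single members, 459 kept direction and side of the threshold, 3 were no longer past it (Lipe, as given above) and 1 came past it (Cideb, without Tnfaip2-/- replicate 2, adjusted p = 0.0498 in edgeR's quasi-likelihood test). Plin5 passed beyond 1.5-fold without WT replicate 1 (edgeR adjusted p = 0.0451) and without Tnfaip2-/- replicate 2 (edgeR adjusted p = 0.0465). The other 13 turned sign in members that did not pass the test. With upper-quartile factors the log2 fold changes were 0.005 for G0s2, 0.0175 for Lipa and 0.0158 for Lpin1. With each replicate left out in turn, they ranged from -0.0918 to 0.401 for Fitm1, -0.061 to 0.0307 for G0s2, -0.0348 to 0.0172 for Lipa, -0.0564 to 0.0155 for Lpin1 and -0.0534 to 0.0735 for Pnpla2. The fit with the replicate number as a block called 11841 genes in place of 12084, 2739 beyond 1.5-fold, and the same numbers of members, 26 and 6. Samples that share a number correlated at -0.022, -0.025 and -0.032 in their deviations and those that do not at 0.004 to 0.021, and no sample correlated best with its own number. A stricter minimum count of 50 left out Mgll and 4 other tested members. Depth limits the low members most: intervals and floors cover counting error only, and Mogat1, Plin1, Plin4, Cidea and Cidec did not pass the main filter. With no filter all 42 members were tested. With DESeq2 all 42 were fitted, which does not show that each received an adjusted p. These fits called 26 and 25, all of them among the 26 of the main fit.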
